A study of Mus musculus with 16 samples.

Results

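The nuclear genes for the subunits of the oxidative phosphorylation machinery were followed in splenic dendritic cells (DCs) of mice with Trim33 conditionally deleted in CD11c-expressing cells, and of their controls. Members were chosen by symbol alone: genes named as structural subunits of complexes I to V (Nduf, Sdh, Uqcr, Cox4 to Cox8 and Atp5 genes), with the Ndufaf assembly factors and Cox6a2 left out. The rule gave 83 genes of the 18232 listed in the deposited tables, of which 82 stood in the table of plasmacytoid DCs (pDCs; 17128 genes) and 83 in the table of conventional DCs (cDCs; 17721 genes). Each was assigned to a complex by its symbol alone: 39 Nduf genes to complex I, 4 Sdh genes to complex II and 8 Uqcr genes to complex III. The 15 Cox genes were assigned to complex IV and the 17 Atp5 genes to complex V. Ndufa4 and Ndufa4l2 were thus counted with complex I by name, and where their products sit was not checked. A further 3 protein-coding genes that match the rule, Ndufb1, Cox7b2 and Cox8c, were listed in neither table and were not analysed here, and neither were the 18 pseudogenes that match it.

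WT mice were Trim33 fl/fl and cKO mice were Trim33 fl/fl Itgax-Cre, all on a C57BL/6 background and aged 6 to 8 weeks. Itgax drives Cre in CD11c-expressing cells, so that a group is defined by where the Cre is active and not by the absence of Trim33 from every cell. The 16 libraries comprised pDCs (3 WT, 3 cKO), cDC1s (2 WT, 2 cKO) and cDC2s (3 WT, 3 cKO). Spleen cells depleted of other lineages were sorted as CD11c+ SiglecH+ pDCs, or as SiglecH- MHC II+ cDCs that were CD24+ CD172a- (cDC1s) or CD24- CD172a+ (cDC2s). Each library pooled the cells of several mice, and the study states more mice for a cKO than for a WT sample.

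Oxidative phosphorylation is carried out in the inner mitochondrial membrane. Complex I (NADH dehydrogenase) and complex II (succinate dehydrogenase) pass electrons to ubiquinone, complex III (the cytochrome bc1 complex) passes them on to cytochrome c, and complex IV (cytochrome c oxidase) hands them to oxygen; complexes I, III and IV pump protons, and complex V (ATP synthase) makes ATP as the protons flow back. Most subunits are encoded in the nucleus and the rest in mitochondrial DNA, and DC subsets are known to differ in how much they use this pathway.

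Values are TPM, the number of transcripts of a gene per fixed total of transcripts in its library, a level already divided by transcript length, so that levels of different genes can be set side by side. The pDC and cDC tables were deposited as separate sets, and levels are compared across them only as values, with no test. Trim33 itself stood at 22.3 ± 1.62 TPM in WT and 13.6 ± 2.53 in cKO pDCs (SD, n = 3 and 3), at 16.8 ± 1.92 and 7.80 ± 0.12 in cDC1s (n = 2 and 2), and at 18.7 ± 1.77 and 7.71 ± 0.51 in cDC2s (n = 3 and 3), so that its mRNA was lower in every cKO group and was still present (log2 fold changes -0.68, -1.02 and -1.17, with adjusted p-values of 0.030, 0.00035 and 0.00013 in limma). Of the 3 subset lists, that of the sorted subset had the highest summed level in every library, and cDC1 markers summed to 3118 to 3357 TPM in WT cDC1s and to 2482 to 2592 in cKO cDC1s. The 7 cDC2 markers summed to 1558 to 1676.6 TPM in WT cDC2s and to 1247 to 1429.5 in cKO cDC2s, with 3 called lower and Clec10a called higher. Summed markers of monocytes and macrophages (7 genes) went from 1350 to 1869 TPM in WT cDC2s to 2642 to 3435 in cKO cDC2s. In cDC1s they went from 390 and 624 TPM in WT to 335 and 331 in cKO libraries. Lyz2 had the highest level of the 7 in each of these groups, and the genes did not move together. In cDC2s only Lyz2 and Csf1r were called higher, and half-way through the 7 ranked genes the log2 fold was 0.13. In cDC1s Csf1r was called higher although the sum was lower, 1 gene was called lower, and that middle value was -0.86. Erythroid markers (6 genes) ranged from 384 to 10736 TPM among the 16 libraries, with the highest value in WT cDC2 library 2. In cDC1s the 5 pDC markers summed to 147.8 to 159.6 TPM in WT and to 238.1 to 240.2 TPM in cKO libraries, with Bst2 and Tcf4 called higher and Ccr9 called lower, and the 5 B cell markers summed to 23.8 to 32.1 TPM and to 16.6 to 17.8 TPM. In bulk samples, fewer cells of a type and less RNA per cell cannot be told apart.

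In WT cells 77 of the 82 members in pDCs, 77 of 83 in cDC1s and 78 of 83 in cDC2s had a mean of at least 10 TPM, with medians of 127.5, 129.2 and 125.3 TPM. Complex V had the highest median member in WT pDCs (264 TPM) and WT cDC1s (343.5 TPM), and complex IV in WT cDC2s (286 TPM). The most abundant member was Cox8a, a small subunit of cytochrome c oxidase, in WT pDCs (618 ± 31.8 TPM), Atp5b, the catalytic beta subunit of ATP synthase, in WT cDC1s (648 ± 15.7 TPM), and Cox7a2l in WT cDC2s (600 ± 31.4 TPM). In WT cDC2s the first place was not separated from the next, since Atp5l, a membrane subunit of ATP synthase, stood at 590 ± 136 TPM. Levels also differed inside a complex: in WT pDCs Ndufs1, the large iron-sulphur subunit of complex I, stood at 37.3 ± 2.54 TPM and Ndufb11, its most abundant member there, at 248 TPM.

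Summed over all members, the levels made up between 1.335% and 1.893% of all TPM in a library. The sum was 14004 to 14495 TPM in the 3 WT pDC libraries and 14480 to 15100 in the 3 cKO pDC libraries, and these ranges overlapped. It was 15507 and 16043 TPM in WT cDC1s and 18330 and 18927 in cKO cDC1s, which did not overlap. It was 13347 to 16236 TPM in WT cDC2s and 14774 to 17408 in cKO cDC2s, which overlapped. Mean sums in cKO libraries were thus 103% of WT in pDCs, 118% in cDC1s and 109% in cDC2s. By complex, the cKO cDC1 sums were 123%, 133%, 115%, 104% and 125% of WT for complexes I, II, III, IV and V. The gap in cDC1s depended on the scale: with libraries rescaled by median-of-ratios size factors the sums were 16717 and 17860 in WT and 17566 and 18636 in cKO cDC1s, which overlapped.

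**Figure D1:**
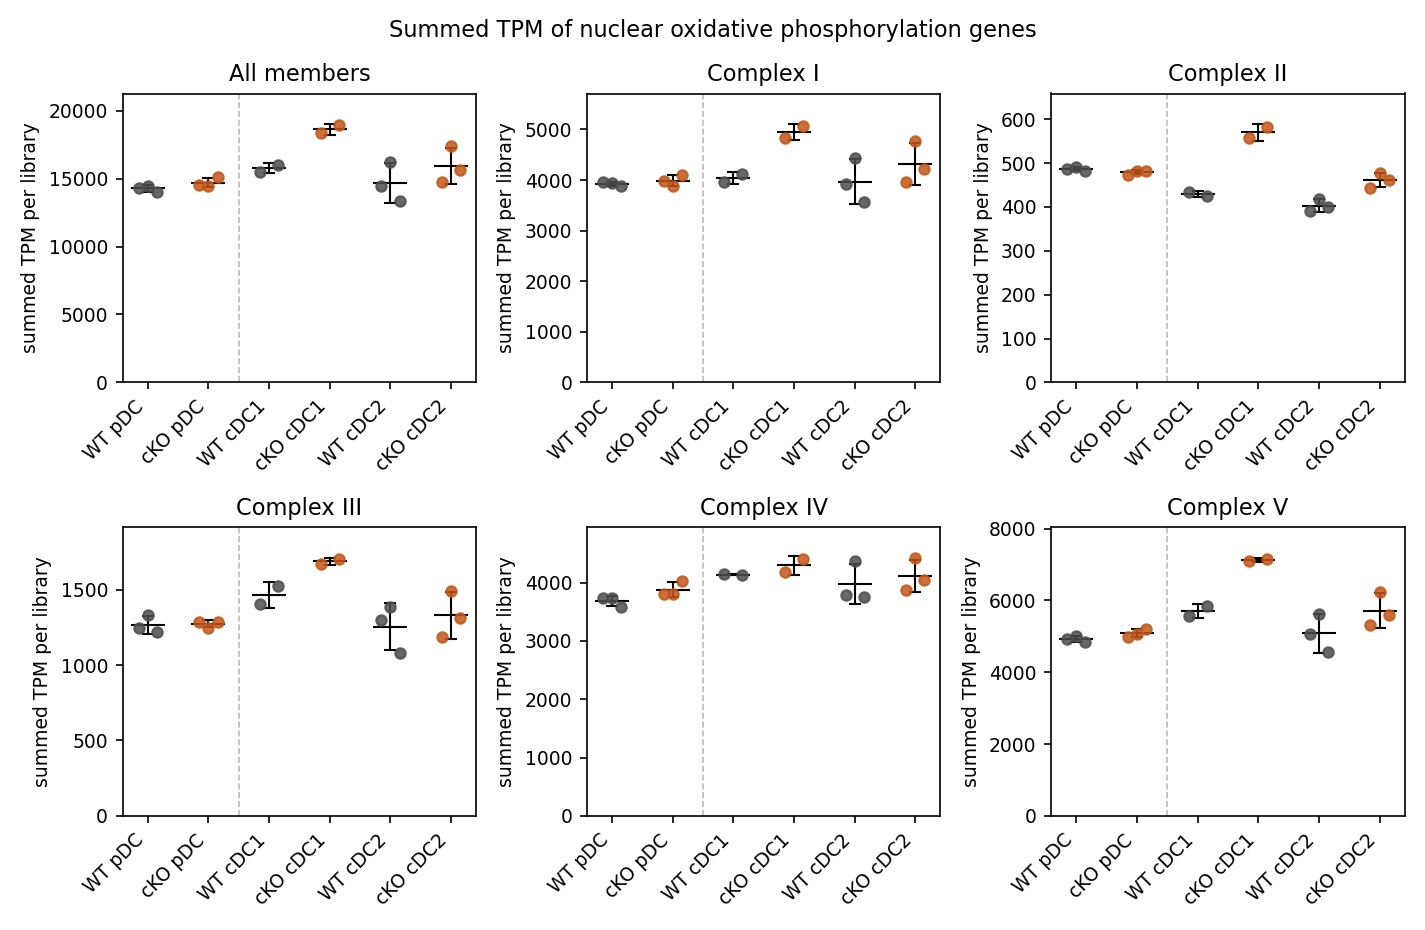
Summed TPM of the members per library (y axis, linear from 0) for all members and for each complex, by group (x axis); points are libraries (grey WT, orange cKO), horizontal bars the group means and whiskers 1 SD, and the dashed line separates the separately normalized pDC and cDC tables. The 2 cKO cDC1 libraries, at 18330 and 18927 TPM, lie above the 14 others for all members, while the cDC2 groups overlap.

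Some members are tissue-restricted or induced relatives of another member, and Cox4i2, Cox8b, Ndufa4l2 and Cox7a1 were at most 2.23 TPM in all libraries. Cox4i2, the lung and hypoxia-associated partner of Cox4i1, never exceeded 0.30 TPM in a library while Cox4i1 stood between 421 and 601 TPM. Cox8b, a heart and muscle form, reached at most 1.13 TPM beside a Cox8a level of 500 to 709 TPM, and Ndufa4l2, a hypoxia-induced relative of Ndufa4, reached at most 0.96 TPM. Cox7a1, another muscle form, lay between 0.30 and 2.23 TPM. Cox6b2, best known from testis, had its highest levels in cDC2s, at 8.24 to 12.8 TPM in WT cDC2s and 14.7 to 16.6 in cKO cDC2s, against 3.86 and 5.00 in WT cDC1s, 7.15 and 7.70 in cKO cDC1s and at most 3.00 in pDCs. For these low genes a fold on the log2(TPM + 1) scale understates the change.

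The c subunit of the ATP synthase rotor is encoded by 3 genes, Atp5g1, Atp5g2 and Atp5g3, which give the same mature protein. Atp5g2 supplied most of their mRNA in WT cells, with 59.4% ± 0.63 of the summed TPM in pDCs, 54.1% ± 3.30 in cDC1s and 65.1% ± 2.91 in cDC2s. In cKO cDC1s its share was 45.9% ± 1.32 while the sum of the 3 genes went from 953 ± 9.75 to 1277 ± 13.9 TPM, and the share of Atp5g1 went from 18.6% ± 1.52 to 23.7% ± 0.59. In cDC2s the share of Atp5g1 was 14.2% to 16.7% in WT and 17.8% to 18.9% in cKO libraries, which did not overlap. In pDCs the shares of Atp5g1 overlapped, at 17.0% to 18.2% and 17.9% to 18.8%.

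Cox6a2, which the symbol rule leaves out, encodes the heart and muscle form of a complex IV subunit whose general form comes from a member, Cox6a1. In WT pDCs Cox6a1 made up 28.9% ± 1.27 of the summed TPM of the pair and in cKO pDCs 14.0% ± 1.48. Cox6a2 stood at 1188.5 ± 63.5 and 3283 ± 496 TPM and Cox6a1 at 482 ± 21.6 and 529 ± 17.5 TPM. In cDCs Cox6a1 made up at least 92.7% of the pair in every library.

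**Figure D2:**
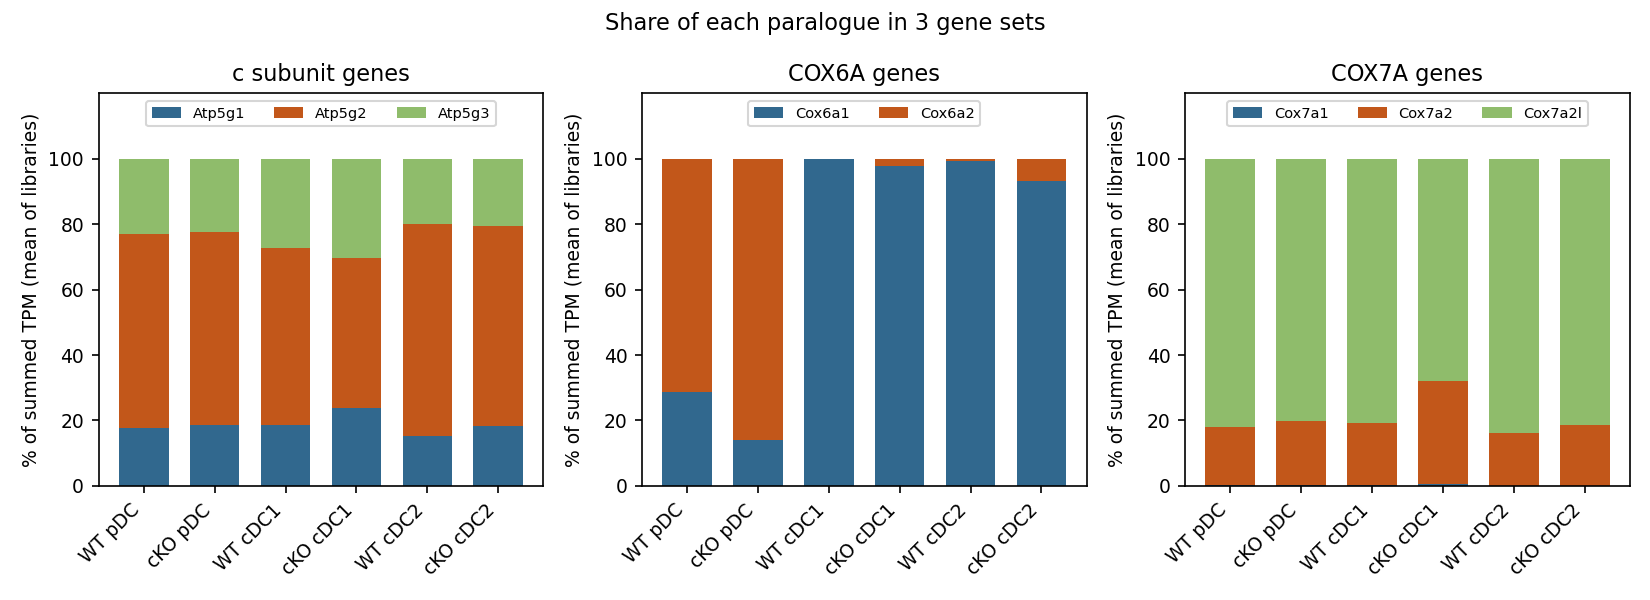
Mean share of each paralogue in the summed TPM of its gene set (y axis, %) for the ATP synthase c subunit genes, the COX6A genes and the COX7A genes, by group (x axis). Atp5g2 goes from 54.1% to 45.9% of the c subunit mRNA between WT and cKO cDC1s, and Cox7a2l from 80.7% to 67.9% of the COX7A mRNA.

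Fold changes were fitted gene by gene with limma on log2(TPM + 1) over all genes with a mean of at least 1 TPM, 79 members among them in each table. A gene was called when its Benjamini-Hochberg adjusted p was at most 0.01 and its absolute log2 fold change at least 0.5, and "rose" and "fell" are kept for called genes. A looser rule, which asks for an adjusted p up to 0.05 and sets no fold limit, is given beside it. Cox4i2, Cox8b and Ndufa4l2 lay below the filter in both tables, and Ndufb4b, which only the cDC table lists, lay below it there.

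The genotype comparisons ask how the members' levels differ with the Trim33 deletion, and most calls were in cDC1s. There, 13 of 79 members rose and 1 fell in cKO against WT libraries, which was 16.5% of the members against 15.8% of the 11411 genes tested that rose, and 1.27% against 6.56% that fell. By the looser rule 32 members (40.5%) were higher against 28.5% of all genes, and 1 was lower against 11.1%. Both cKO libraries lay above both WT libraries for 63 members, or 79.7%, against 52.1% of all genes, and below them for 6 members, or 7.59%, against 24.1%. The share of members that rose was thus close to the background, whereas their median log2 fold change, 0.29, lay above the 0.17 of all genes. With 2 libraries a group, the spread rests on the residuals of all 10 cDC libraries. The count of 14 calls went down to 6 without cKO cDC1 library 1, and to 8 without cKO cDC1 library 2 or without WT cDC1 library 2.

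Both the background and the members' counts depended on the scale. On the deposited scale 70.7% of all calls in cDC1s were increases and the median of all genes was 0.17; with median-of-ratios scaling 50% were increases, the median of all genes was 0.02 and that of the members 0.12, with 6 members called higher (9.35% of all genes were) and 1 lower. The excess by the looser rule was not kept on the other scales, which for that rule were tried after seeing the data: 13 members (16.5%) were higher with median-of-ratios scaling against 19.2% of all genes, 16 (20.3%) with quantile normalization against 19.1%, and 19 (24.1%) with FPKM against 25.2%. After median-of-ratios scaling both cKO libraries lay above both WT libraries for 39 members, or 49.4%, against 39% of all genes, and below them for 12, or 15.2%, against 35.4%. Relative to the median of all genes, the members' median was 0.12 higher on the deposited scale and 0.10 higher with median-of-ratios scaling. When each fold was taken relative to the median of all genes, 7 members rose (8.86%) against 11.4% of all genes, and 57 of 79 members lay above that median. Cytosolic ribosomal protein genes took 15.6% and 17.3% of all TPM in WT cDC1s, compared with 14.4% and 15.2% in cKO cDC1s, and the part of that shift in the members' values was not tested. Neither was the part of the pDC, cDC1 and B cell markers, whose sums also differed between WT and cKO cDC1s, as given above.

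**Figure D3:**
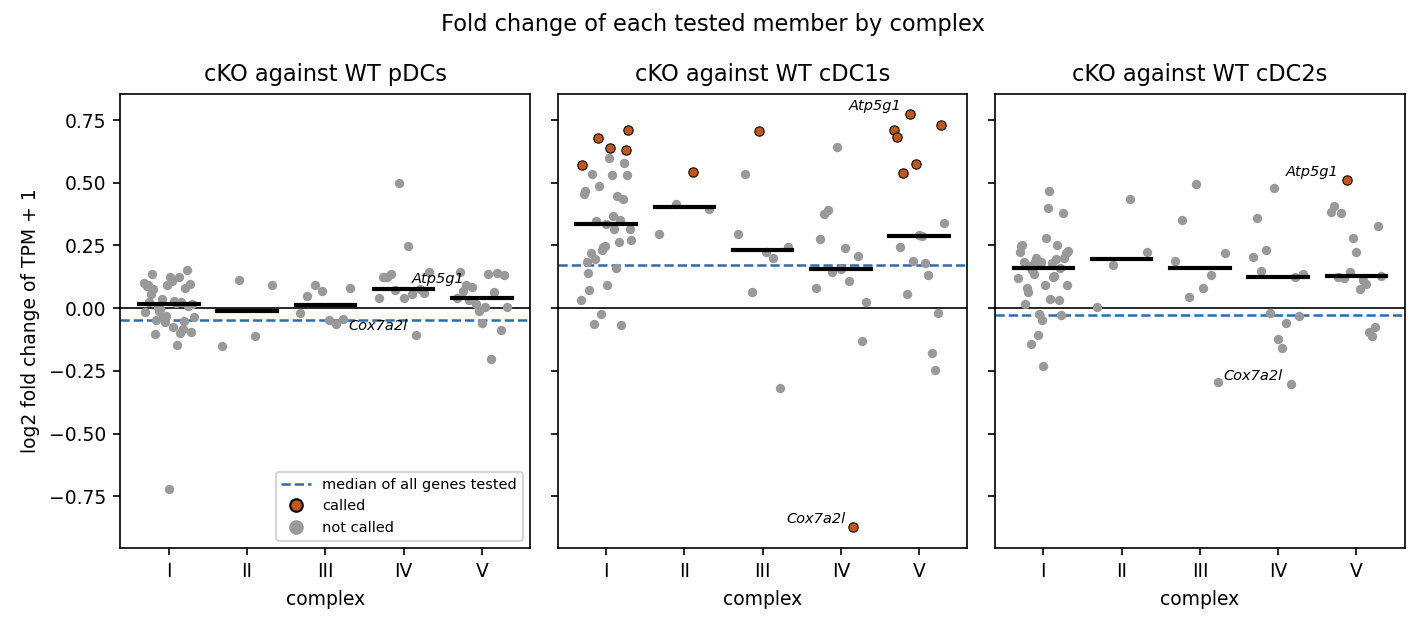
Log2 fold change of TPM + 1 (y axis), cKO against WT, of each tested member by complex (x axis) in pDCs, cDC1s and cDC2s; thick bars are the medians of a complex, the dashed line the median of all genes tested, and filled outlined points are called members. In cDC1s 13 members are called above 0 and Cox7a2l, at -0.87, is called below it, while no member is called in pDCs.

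In complex I, 5 of 37 tested members rose in cKO cDC1s, 17 were higher by the looser rule, none fell, and the median was 0.33. Over all genes on the deposited scale, 15.8% rose, 6.56% fell and 28.5% were higher by the looser rule. Counts by complex were made on that scale only, and the excess of all members by the looser rule was not kept on the others. Ndufv1, the flavin-binding subunit where NADH is oxidised, stood at 45.3 and 43.7 TPM in WT and 74.8 and 72.0 in cKO cDC1 libraries. The groups did not overlap, and the log2 fold change was 0.71 ± 0.10 (SE; adjusted p = 0.00047, limma). Ndufa9, a subunit near the quinone site, went from 70.3 and 78.8 to 115 and 124 TPM (0.68 ± 0.13, adjusted p = 0.0031). The other calls were Ndufb7 (0.64 ± 0.11), Ndufs7 (0.63 ± 0.13), an iron-sulphur subunit of the quinone-binding module, and Ndufa10 (0.57 ± 0.12). Ndufs1 had a log2 fold change of 0.45 (adjusted p = 0.012) and was not called. Ndufa9, Ndufb7, Ndufs7 and Ndufa10 were not called with median-of-ratios scaling, and each of them lost its call without at least 1 of the 4 cDC1 libraries.

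Complex II, which also works in the TCA cycle, had all 4 members higher by the looser rule in cKO cDC1s, and 1 of them rose. That was Sdhc, a membrane anchor, with 93.0 and 82.8 TPM in WT and 121 and 136 in cKO libraries (0.54 ± 0.10, adjusted p = 0.0028). Its call was lost with median-of-ratios scaling, quantile normalization and FPKM, and without WT cDC1 library 2, cKO cDC1 library 1 or cKO cDC1 library 2. Sdha, the flavoprotein that oxidises succinate, went from 120 and 112 to 139 and 146 TPM (0.29 ± 0.10, adjusted p = 0.037), and Sdhb, the iron-sulphur subunit, from 135 and 132 to 177 and 179 TPM (0.41 ± 0.10, adjusted p = 0.011). Neither was called, although their groups did not overlap, and over the alternatives the adjusted p reached 0.264 for Sdha and 0.182 for Sdhb. In complex III, 1 of 8 members rose: Uqcrc1, a core protein of the matrix side, with 131 and 127 TPM in WT and 220 and 202 in cKO libraries (0.71 ± 0.11, adjusted p = 0.0011). Without cKO cDC1 library 1 it was not called (adjusted p = 0.017). Uqcrfs1, the Rieske iron-sulphur protein, had a log2 fold change of 0.20 (adjusted p = 0.13), and Uqcrh, the hinge protein beside cytochrome c1, of -0.32 (adjusted p = 0.20).

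In complex IV, 0 of 13 tested members rose in cDC1s (3 were higher by the looser rule) and 1 fell, and the median was 0.16. Cox7a2l, which encodes a relative of COX7A, stood at 524 and 520 TPM in WT cDC1s and at 274 and 295 in cKO cDC1s. The cKO mean was 54.6% of the WT mean (log2 fold change -0.87 ± 0.09, adjusted p = 0.00016), and it was the lowest fold of all members in this comparison. Its paralogue Cox7a2, the COX7A form of most tissues, had 109 and 138 TPM in WT and 129 and 136 in cKO libraries, which overlapped. Cox7a2l made up 80.7% ± 2.59 of the COX7A mRNA in WT and 67.9% ± 0.25 in cKO cDC1s. The fold of Cox7a2l ranged from -1.05 to -0.82 over 19 alternative settings and was called in each of them. Cox4i1 and Cox5a, which assemble early around the first core subunit, had folds of 0.08 (adjusted p = 0.55) and 0.28 (adjusted p = 0.12), and the sign of Cox4i1 turned with median-of-ratios scaling.

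Complex V held 6 of the 13 increases in cDC1s. Atp5g1 had the highest fold, with 186 and 168 TPM in WT and 305 and 300 in cKO libraries (0.77 ± 0.10, adjusted p = 0.00029). Atp5o, which encodes OSCP, the link between the catalytic head and the stator, went from 171 and 177 to 283 and 296 TPM (0.73 ± 0.10, adjusted p = 0.00058). The catalytic head followed: Atp5a1 (alpha) went from 342 and 353 to 580 and 559 TPM (0.71 ± 0.09, adjusted p = 0.00027) and Atp5b (beta) from 659 and 637 to 1040 and 1040 TPM (0.68 ± 0.09, adjusted p = 0.00049). Atp5g3 (0.58 ± 0.10) and Atp5d, the delta subunit of the central stalk (0.54 ± 0.09), completed the list. Atp5g3 was not called with median-of-ratios scaling, nor without WT cDC1 library 2, cKO cDC1 library 1 or cKO cDC1 library 2, with folds down to 0.40. Atp5d was not called with median-of-ratios scaling or FPKM, nor without either WT cDC1 library or cKO cDC1 library 1, with folds down to 0.37. The remaining 11 members of complex V were not called, Atp5g2 among them (0.19 ± 0.12, adjusted p = 0.23), and 3 of the 17 had folds below 0. Atp5g1, Atp5o, Atp5a1, Atp5b and Ndufv1 stayed called under all 19 alternative settings, with folds from 0.51 to 0.85.

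**Figure D4:**
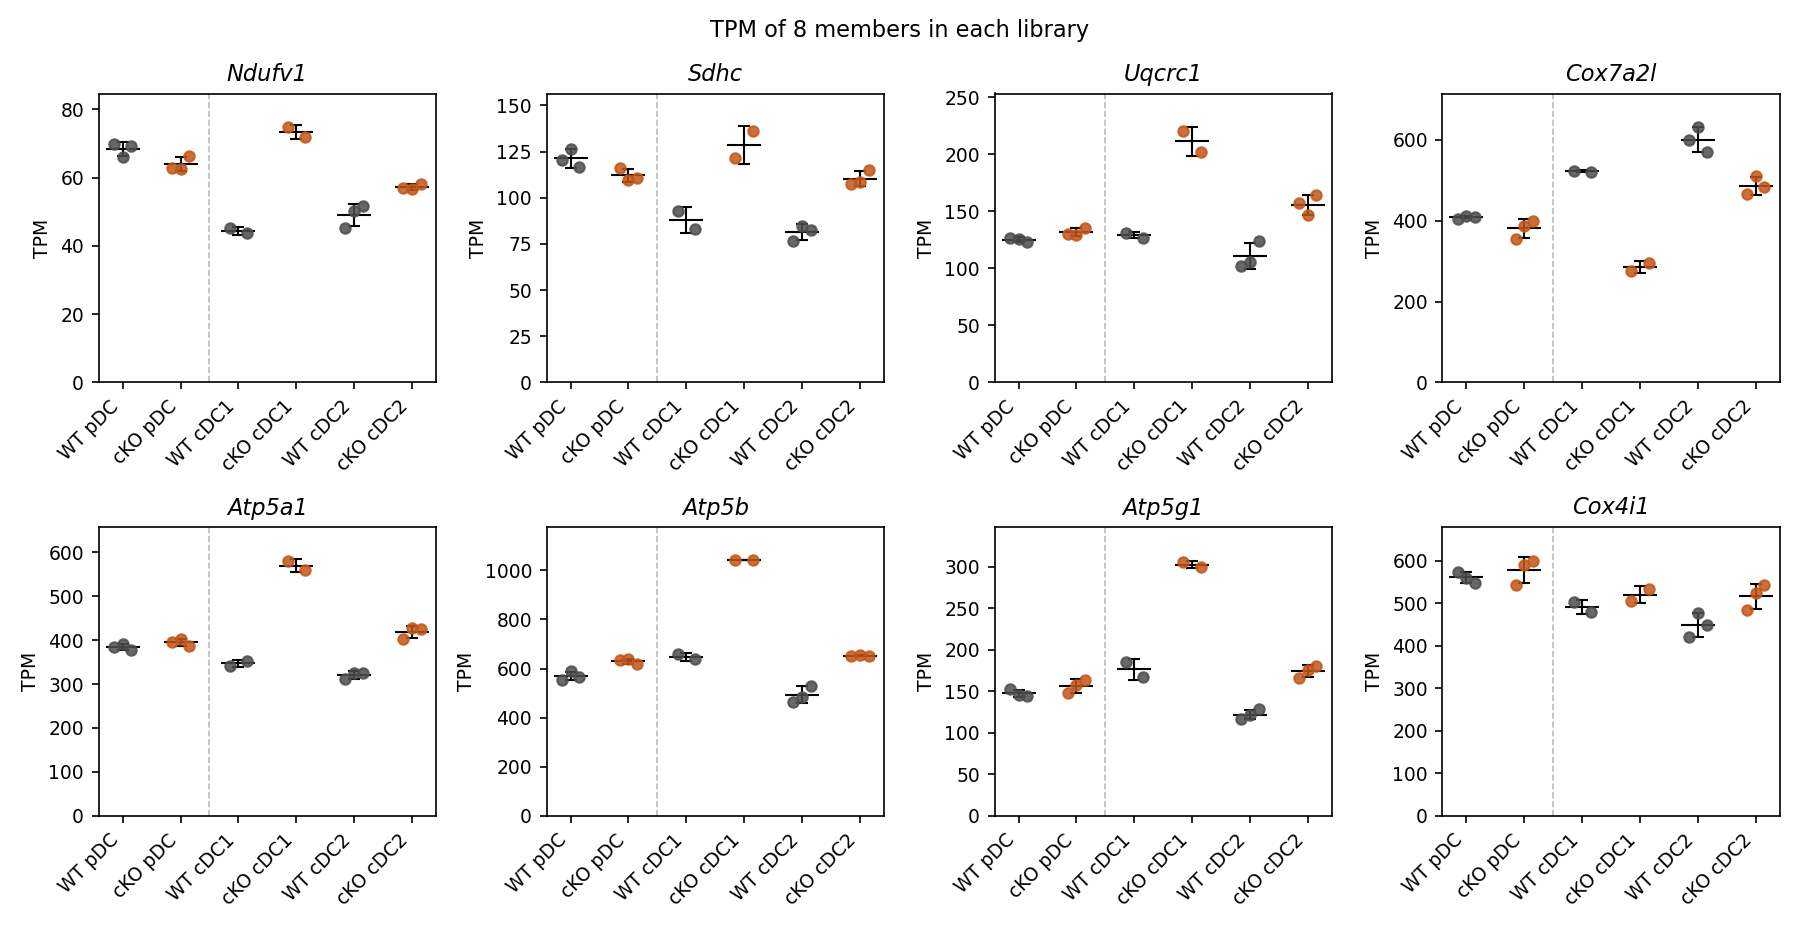
TPM of 8 members in each library (y axis, linear from 0) by group (x axis); points are libraries (grey WT, orange cKO), bars the group means and whiskers 1 SD, and the dashed line separates the pDC from the cDC table. Cox7a2l is at 274 and 295 TPM in cKO cDC1s against 524 and 520 in WT cDC1s, whereas Ndufv1, Uqcrc1, Atp5a1, Atp5b and Atp5g1 are higher in both cKO cDC1 libraries.

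Promoters of 4 members, picked after their values were seen, are printed to show what lies around the start sites of members that moved in opposite directions. The windows run from 250 bases before to 50 bases after an annotated start (RefSeq, GRCm38.p6), printed 5′ to 3′ on the strand of the gene, and were found for 68 of 83 members. Capitals mark the letters searched on both strands: GCGCATGC for NRF1 and AAGATGGC for YY1, known regulators of genes of this pathway, and CCGGAAGT for GABPA and its ETS relatives. The first 2 promoters below belong to members that rose in cKO cDC1s, the next to the member with the highest fold and the last to Cox7a2l, which fell.
Uqcrc1, chr9:108936398-108936697, plus strand: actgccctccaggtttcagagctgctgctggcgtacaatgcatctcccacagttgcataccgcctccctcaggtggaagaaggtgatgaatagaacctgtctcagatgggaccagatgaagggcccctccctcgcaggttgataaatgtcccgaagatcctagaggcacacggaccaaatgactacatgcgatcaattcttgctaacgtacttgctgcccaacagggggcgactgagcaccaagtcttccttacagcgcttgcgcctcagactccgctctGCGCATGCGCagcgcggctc
Ndufs7, chr10:80249199-80249498, plus strand: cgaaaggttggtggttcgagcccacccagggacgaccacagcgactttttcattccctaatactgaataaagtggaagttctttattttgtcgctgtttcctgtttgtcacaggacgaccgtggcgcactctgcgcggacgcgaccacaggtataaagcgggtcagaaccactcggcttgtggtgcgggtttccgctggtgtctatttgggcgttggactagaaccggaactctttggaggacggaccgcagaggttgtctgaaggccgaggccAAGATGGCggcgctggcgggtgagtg
Atp5g1, chr11:96075582-96075881, minus strand: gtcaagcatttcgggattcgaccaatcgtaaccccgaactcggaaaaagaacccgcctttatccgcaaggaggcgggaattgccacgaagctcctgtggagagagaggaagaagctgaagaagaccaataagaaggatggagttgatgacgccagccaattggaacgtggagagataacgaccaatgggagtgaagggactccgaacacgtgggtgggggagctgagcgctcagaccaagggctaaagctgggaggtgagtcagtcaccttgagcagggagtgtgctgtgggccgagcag
Cox7a2l, chr17:83514284-83514583, minus strand: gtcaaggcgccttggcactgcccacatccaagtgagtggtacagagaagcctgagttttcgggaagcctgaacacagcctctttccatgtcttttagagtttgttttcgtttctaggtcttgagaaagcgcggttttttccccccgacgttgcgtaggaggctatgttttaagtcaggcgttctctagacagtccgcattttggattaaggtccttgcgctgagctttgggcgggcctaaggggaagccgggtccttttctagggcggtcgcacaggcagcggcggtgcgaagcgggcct

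The Uqcrc1 window holds the NRF1 letters, in overlapping copies on both strands, and that of Ndufs7 the YY1 letters, both within the 50 bases after the start; the windows of Atp5g1 and Cox7a2l hold none of the 3. Across members, 10 of 68 (14.7%) had the NRF1 letters, against 4.67% of the genes in the tables and 3.05% of all genes with a promoter in the reference. The YY1 letters also stood in 10 of 68 (14.7%), against 4.11% and 3.19%, and the ETS letters in 5 of 68 (7.35%), against 6.8% and 4.31%. At least 1 of the 3 was found in 24 members (35.3%), against 14.5% of the genes in the tables. Among tested members, 1 of the 10 with the NRF1 letters rose in cDC1s against 10 of 56 without, with median folds of 0.37 and 0.29. For the YY1 letters it was 2 of 10 against 9 of 56, with medians of 0.33 and 0.28. For the ETS letters it was 0 of 5 against 11 of 61, with medians of 0.29 and 0.29. A match is a description of these windows and no record of binding.

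In cDC2s 1 of 79 members rose (1.27%), against 3.59% of all genes, and 0 fell, against 3.56%; 22 members had an unadjusted p under 0.05. By the looser rule 13 members (16.5%) were higher against 9.74% of all genes and 1 was lower against 10.2%. All cKO libraries lay above all WT libraries for 23 members (29.1%) against 16.3% of all genes, and below them for 1 member (1.27%) against 19.2%. After median-of-ratios scaling, tried after seeing the data, they lay above for 22 members (27.8%) against 22.1% of all genes, and below for 0 against 16.5%. The median log2 fold change was 0.14 over members and -0.03 over all genes. Of all calls in cDC2s, 50.2% were increases on the deposited scale and 60.4% with median-of-ratios scaling. That scaling called 3 of 79 members higher, a smaller share than the 5.07% of all genes, and 0 lower, against 3.32%. The summed monocyte and macrophage markers were higher in every cKO cDC2 library than in every WT one, and the summed cDC2 markers were lower, as given above. The part of either list in these values was not tested.

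The called member in cDC2s was Atp5g1, with 117, 121 and 128 TPM in WT and 166, 176 and 181 in cKO libraries (0.51 ± 0.08, adjusted p = 0.0021, limma). The groups did not overlap, but the call was lost without WT cDC2 library 1, without cKO cDC2 library 3 and with the 2 cDC2 groups fitted alone. The next 5 by p were Atp5a1 (0.38 ± 0.07, adjusted p = 0.0053), Uqcrc1 (0.50 ± 0.09, adjusted p = 0.0056), Atp5b (0.41 ± 0.08, adjusted p = 0.0059), Sdhc (0.44 ± 0.09, adjusted p = 0.0070) and Atp5d (0.38 ± 0.08, adjusted p = 0.0081), each under the fold limit. Atp5b was at 463, 484 and 531 TPM in WT and at 653, 654 and 649 in cKO cDC2s, with no overlap. Uqcrc1 was at 102, 105 and 124 TPM in WT and at 157, 146 and 164 in cKO cDC2s, also with no overlap. Cox7a2l was the member whose cKO libraries all lay below the WT ones, with 600, 632 and 569 TPM in WT and 467, 510 and 483 in cKO cDC2s (-0.30 ± 0.08, adjusted p = 0.022). Among the core subunits, the folds of Ndufs1 (0.13), Ndufv1 (0.22), Sdha (0.01), Sdhb (0.17), Uqcrfs1 (0.13), Cox4i1 (0.20) and Cox5a (0.36) were not called, and that of Cox5a passed the looser rule (adjusted p = 0.043). Without WT cDC2 library 3, whose member sum was the lowest of the 3, the median of the members was 0.07.

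The genotype effect was then compared between cDC1s and cDC2s as an interaction in the same fit. No member was called (0 of 79 against 2.56% of all genes; limma), 10 had an unadjusted p under 0.05, and 2 passed the looser rule, or 2.53% against 11.3% of all genes. Cox7a2l was lower in cKO cDC1s by more than in cKO cDC2s (difference of log2 fold changes -0.57 ± 0.12, adjusted p = 0.019). Ndufv1 went the other way (0.49 ± 0.12, adjusted p = 0.035), with folds of 0.71 in cDC1s and 0.22 in cDC2s. For Atp5o, Ndufs6, Atp5a1 and Ndufa9 the differences were 0.40, 0.61, 0.33 and 0.50, with adjusted p-values of 0.077, 0.079, 0.082 and 0.088. The median difference over the members was 0.16 against 0.22 over all genes, and with median-of-ratios scaling it was -0.06 against 0.01. Of all calls for the difference, 47.3% were positive on the deposited scale, 26.2% with median-of-ratios scaling and 30.8% with quantile normalization. For most members a larger change in cDC1s than in cDC2s was therefore not shown.

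In pDCs no member was called (0 of 79 against 1.05% of all genes) and none passed the looser rule (4.55% of all genes); 7 had an unadjusted p under 0.05 in limma. The median log2 fold change was 0.04 over members and -0.05 over all genes, and 52 of 79 folds were above 0. The cKO libraries all lay above the WT ones for 10 members (12.7%, against 10.8% of all genes) and below them for 4 (5.06%, against 16.7%), which were Cox7a2l, Ndufb4c, Sdha and Sdhc. After median-of-ratios scaling, tried after seeing the data, these counts were 19 (24.1%, against 14.1%) and 2 (2.53%, against 12.8%). The 6 members of lowest p were Ndufb4c (-0.72 ± 0.23, adjusted p = 0.14), Atp5b (0.15 ± 0.05, adjusted p = 0.15), Sdha (-0.15 ± 0.06, adjusted p = 0.19), Atp5j2 (0.14 ± 0.05, adjusted p = 0.20), Ndufc2 (0.12 ± 0.05, adjusted p = 0.22) and Cox6a1 (0.14 ± 0.06, adjusted p = 0.23). Sdha was at 152, 141 and 153 TPM in WT and 129, 137 and 134 in cKO pDCs. Ndufb4c is a paralogue of Ndufb4, and how reads were divided between them is uncertain; it stood at 31.3, 16.1 and 19.6 TPM in WT and 12.7, 10.4 and 15.3 in cKO pDCs. Cox7a2l stood at 405, 411 and 410 TPM in WT and 354, 388 and 400 in cKO pDCs (-0.10 ± 0.06, adjusted p = 0.36). For Atp5g1 the fold was 0.08 with an SE of 0.06. These p-values come from the fit without a replicate block. With replicate numbers as a block, 260 genes were called higher and 75 lower in pDCs, against 92 and 27 without it, and still 0 members. By the looser rule 1 member then passed, Ndufb4c, which was lower (adjusted p = 0.027, limma), beside 1395 of the 11299 genes tested. The core subunits Ndufs1, Ndufv1, Sdhb, Uqcrc1, Uqcrfs1, Cox4i1, Cox5a and Atp5a1 had folds between -0.10 and 0.13.

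Between WT cDC1s and WT cDC2s, 3 members were higher in cDC1s (3.8% against 10.9% of all genes) and 1 was lower (1.27% against 20.8%). By the looser rule 10 were higher (12.7% against 16.4%) and 1 was lower (1.27% against 32.3%). The median fold was 0.10 over members and -0.17 over all genes. Ndufa12, a peripheral subunit of complex I, was at 60.6 and 63.3 TPM in WT cDC1s and 40.3, 38.1 and 31.7 in WT cDC2s (0.74 ± 0.13, adjusted p = 0.00089). Atp5g3 was at 271 and 250 TPM against 151, 164 and 165 (0.70 ± 0.09, adjusted p = 0.0001), and Atp5g1 differed by 0.53 ± 0.09 (adjusted p = 0.00062). Cox6b2 was the lower member (-1.12 ± 0.17, adjusted p = 0.00041). Uqcrfs1 (0.42 ± 0.09, adjusted p = 0.0029) and Atp5b (0.40 ± 0.08, adjusted p = 0.0032) came next by p. The count of higher members depended on the scale: it was 7 with median-of-ratios scaling and 6 with quantile normalization, each beside 1 lower. Of the 11411 genes tested, 1815 and 1761 were higher on these scales. The share of the 79 members that was higher thus stayed below that of all genes by this rule. By the looser rule 32 members (40.5%) were higher with median-of-ratios scaling against 25.1% of all genes, so that the members went from below the background to above it, while 14 (17.7%) were higher with quantile normalization against 24.2%, and 10 (12.7%) with FPKM against 19%. Of all calls, 34.4% were higher in cDC1s on the deposited scale, 51.4% with median-of-ratios scaling and 52.3% with quantile normalization.

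Between cKO cDC1s and cKO cDC2s, 8 members were higher in cDC1s (10.1% against 14.5% of all genes) and 2 were lower (2.53% against 13.8%). By the looser rule the counts were 32 (40.5% against 24.4%) and 2 (2.53% against 20.4%), and the medians were 0.28 over members and 0.05 over all genes. The excess of higher members was smaller on the other scales, tried for this rule after seeing the data. There were 25 (31.6% against 24.2%) with median-of-ratios scaling, 26 (32.9% against 25.8%) with quantile normalization and 23 (29.1% against 23.3%) with FPKM. The higher members were Cox7a1 (1.00 ± 0.18), at 2.23 and 2.14 TPM against 0.65, 0.87 and 0.30, Atp5g3 (0.99 ± 0.09), Ndufa12 (0.96 ± 0.13), Atp5g1 (0.79 ± 0.09), Atp5b (0.67 ± 0.08), Ndufa9 (0.58 ± 0.12), Ndufb6 (0.55 ± 0.14) and Ndufc1 (0.50 ± 0.09). The lower ones were Cox6b2 (-0.96 ± 0.17) and Cox7a2l (-0.77 ± 0.09, adjusted p = 5e-05). Cox7a2l was not called between the WT subsets (-0.20 ± 0.09, adjusted p = 0.081). The calls of Ndufa9, Ndufb6 and Ndufc1 were lost with median-of-ratios scaling, quantile normalization and FPKM; over 19 alternatives Ndufb6 lost its call under 16 (adjusted p up to 0.077) and Ndufa9 and Ndufc1 under 7 each. Those of Cox7a1 and Cox6b2 were lost without either cKO cDC1 library. This comparison shares the cKO libraries with the genotype comparisons above, so these values are given side by side with them. Of its 10 calls, the count was 6 without cKO cDC1 library 1 and 5 without cKO cDC1 library 2.

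The members are short transcripts, with a median of 764 bases against 2968.5 over all genes tested in cDCs. In cDC1s the 50 members under 1000 bases had a median fold of 0.24 and the 28 longer ones of 0.35, against 0.14 and 0.18 over all genes of those lengths, and the part of length in these folds was not tested.

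Other genes of the pathway were counted from lists of fixed names. In cDC1s the shares over all genes were 15.8% that rose and 6.56% that fell, with a median of 0.17, on the deposited scale, and 9.35% in each direction, with a median of 0.02, with median-of-ratios scaling, which for these lists was tried after seeing the data. None of the 13 protein-coding genes of mitochondrial DNA was listed in the tables, so the balance of nuclear and mitochondrial subunits was not analysed here. In cDC1s, 6 of 14 TCA cycle enzymes (42.9%) rose and 0 fell on the deposited scale, with a median of 0.48 and Idh2 (1.11 ± 0.10), Idh3a (1.06 ± 0.11) and Idh3g (0.54 ± 0.09), all isocitrate dehydrogenases, of lowest p. With median-of-ratios scaling 2 of the 14 (14.3%) were called higher, Idh2 and Idh3a, and the median was 0.31. Of 17 electron carrier genes 6 (35.3%) rose and 0 fell (median 0.48), led by ubiquinone synthesis genes Pdss1 (0.81 ± 0.13), Coq5 (0.70 ± 0.13) and Coq6 (0.82 ± 0.15); with median-of-ratios scaling these 3 (17.6%) were called and the median was 0.31. Of 15 genes of pyruvate entry and ADP/ATP exchange 6 (40%) rose and 0 fell (median 0.34), among them Vdac1, the outer membrane channel (0.81 ± 0.09), and Pdha1, a pyruvate dehydrogenase subunit (0.65 ± 0.09), which was not called with median-of-ratios scaling, where 2 genes (13.3%) were and the median was 0.17. Of 51 assembly factors 6 (11.8%) rose and 1 fell (median 0.20), with Ecsit (0.83 ± 0.13), Ndufaf4 (0.69 ± 0.13) and Cox10 (0.80 ± 0.15) of lowest p; with median-of-ratios scaling 2 (3.92%) were called higher, Ecsit and Cox10, and the median was 0.03.

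Of 19 transcription and biogenesis factors 8 (42.1%) rose in cDC1s and 0 fell (median 0.42), among them Myc (2.09 ± 0.25), Yy1 (0.67 ± 0.11) and the mitochondrial DNA polymerase Polg (1.09 ± 0.19); with median-of-ratios scaling 3 (15.8%) were called higher, Myc and Polg among them and Yy1 not, and the median was 0.25. Mitochondrial ribosomal protein genes had 27 increases among 78 (34.6%) and 0 decreases with a median of 0.45, and 9 increases (11.5%) with a median of 0.28 with median-of-ratios scaling. Their sum was 3877 and 3784 TPM in WT and 5095 and 5197 in cKO cDC1s. Cytosolic ribosomal protein genes had 3 increases among 89 and 0 decreases, with a median of -0.10, and the 3 were Rpl7l1, Rps19bp1 and Rps6ka3, which share the name pattern (Rps6ka3 encodes a kinase). With median-of-ratios scaling they had 0 increases and 1 decrease, with a median of -0.27. Of the subunits outside the symbol rule, Cyc1, the cytochrome c1 of complex III (0.65 ± 0.10), and Ndufab1, the acyl carrier protein (0.85 ± 0.14), rose, as did Cox6a2; Cyc1 was not called with median-of-ratios scaling.

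In cDC2s 3.59% of all genes rose and 3.56% fell. The TCA enzymes had 0 calls (5 at an unadjusted p under 0.05, limma). By the looser rule 4 of the 14 were higher, Fh1 (0.41 ± 0.08) and Idh3a (0.45 ± 0.09) among them, against 9.74% of all genes. The mitochondrial ribosomal list had 0 calls (21 at an unadjusted p under 0.05, limma) and a median of 0.13, and by the looser rule 11 of its genes were higher and 0 lower. With median-of-ratios scaling 3 of its 78 genes (3.85%) were called higher, against 5.07% of all genes. Pdk3, a pyruvate dehydrogenase kinase, rose (0.70 ± 0.09) while Coq8a fell (-0.75 ± 0.11). In pDCs, where 1.05% of all genes were called, the call on these lists, Cox6a2 aside, was Mpc1, a subunit of the mitochondrial pyruvate carrier, which fell (-1.15 ± 0.05, adjusted p = 0.00015), and the mitochondrial ribosomal list had 0 calls (6 at an unadjusted p under 0.05) and a median of -0.01.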

How the data were processed

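RNA-seq libraries of sorted splenic DCs were read as single ends of 50 bases. Per the labels and the study's methods, the authors cleaned the reads, aligned them to the genome with HISAT2 2.0.4, and, for the deposited tables, mapped them to transcripts with Bowtie2 2.2.5 and estimated levels with RSEM 1.2.12; the tool versions come from the submitters' processing notes. The deposited TPM tables give 1 value per gene and library, scaled to the same sum in every library (transcripts per 1e6), and the deposited FPKM tables give the same levels per length and per mapped fragments. Levels are relative, so a change in a few abundant genes moves all others. The tables hold no counts; from the steps of low FPKM values, depth was estimated as 17.6 to 19.8 (in 1e6 reads) per library, or 8.28 to 10.8 reads per TPM and kilobase, which is a rough estimate only. RSEM divides reads of near-identical copies between them, so such genes are uncertain.

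Gene IDs were matched to RefSeq symbols for 17079 of 17128 rows of the pDC table and 17667 of 17721 of the cDC table. The 6 pDC libraries, and separately the 10 cDC libraries (4 group means, 1 common spread) were fitted with limma 3.58.1 (trended empirical Bayes, R 4.3.3) on log2(TPM + 1) over genes with a mean of at least 1 TPM; the fit was tested on simulated data. Benjamini-Hochberg adjustment ran over all genes of a fit (11299 and 11411). Genes with an adjusted p no higher than 0.01 and a log2 fold change of 0.5 or more in size were called, by the study's limits. In each comparison the called members were named, up to 12 by size of fold, or with fewer than 6 calls the 6 of lowest p; core subunits, extremes of level and tissue forms were always eligible, and up to 3 genes of lowest p on each related list. Sdhc and Atp5d in cDC1s were named beyond that limit, and 1 core subunit is not reported here. Members and lists were chosen with earlier results of these data known. The related list of subunits outside the symbol rule holds 2 genes that are members under their current symbols.

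Replicates of a group are separate libraries of pooled cells; identical libraries were not found (r 0.991 to 0.997 between replicates), and p-values measure the spread between pools. The labels number the replicates. In pDCs same-numbered WT and cKO libraries deviated together over all genes tested (correlations of 0.31, 0.39 and 0.21). Over the members alone the correlations were 0.06, 0.33 and -0.01. From the values over all genes, and not from a stated design, the numbers were taken to pair these libraries. The main pDC fit left this pairing out, and the replicate block used it. Same-numbered libraries had correlations of -0.23 in cDC1s and of -0.25, 0.25 and -0.16 in cDC2s, where cKO library 1 and WT library 3 had 0.47. In cDC1s and cDC2s the numbers were not taken as pairs. The alternatives were median-of-ratios scaling, quantile normalization, FPKM, a pseudocount of 0.1, no filter and a filter of 5 TPM, no trend, a replicate block, each library left out, and the compared groups alone.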

Additional observations from a re-analysis of the deposited data

Results flagged for a closer look

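For 2 members the genotype effect differed between cDC1s and cDC2s by the interaction term, at an adjusted p of at most 0.05 in limma over all genes. Cox7a2l had a difference of -0.571 on the log2 scale (SE 0.12, adjusted p = 0.019), with cKO levels of 54.6% of WT in cDC1s and 81.1% in cDC2s. Ndufv1 had a difference of 0.490 (SE 0.12, adjusted p = 0.035), with 165% and 117%. Neither met the stricter rule of an adjusted p of at most 0.01, and over the alternatives the adjusted p ranged from 0.0089 to 0.121 for Cox7a2l and from 0.025 to 0.166 for Ndufv1.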

How the results depend on the processing

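Among the 79 tested members, against 14 calls in cDC1s (13 higher, 1 lower), median-of-ratios scaling gave 7, folds relative to the median of all genes (chosen after seeing the data) 8, and the looser rule 33; leaving out 1 library gave 6 to 16, with 8 without WT cDC1 library 2, 6 without cKO cDC1 library 1 and 8 without cKO cDC1 library 2. In cDC2s, against 1 call, median-of-ratios scaling gave 3, quantile normalization 2, FPKM 2, folds relative to the median of all genes (also chosen after seeing the data) 2, the compared groups alone 0 and the looser rule 14; leaving out 1 library gave 0 to 2. For the difference between cDC1s and cDC2s, against 0, quantile normalization gave 1 and the looser rule 2. For WT cDC1s against WT cDC2s, against 4, median-of-ratios scaling gave 8, quantile normalization 7 and the looser rule 11. For cKO cDC1s against cKO cDC2s, against 10, the looser rule gave 34, and leaving out 1 library gave 5 to 15 (6 without cKO cDC1 library 1, 5 without cKO cDC1 library 2). In pDCs the count was 0 under all alternatives.

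The median log2 fold change moved beyond the spread between replicates as follows. With median-of-ratios scaling it was 0.079 in pDCs, 0.12 in cDC1s, -0.065 for the difference and 0.30 between WT cDC1s and cDC2s; with quantile normalization 0.19 in cDC1s, 0.019 for the difference and 0.19 between WT cDC1s and cDC2s; with FPKM 0.070 in pDCs and 0.046 for the difference. Leaving out 1 library gave 0.013 to 0.064 in pDCs, 0.066 to 0.21 in cDC2s and 0.078 to 0.23 for the difference. The cause of these moves was not tested. Folds near 0 changed sign: Cox4i1 in cDC1s (-0.091 with median-of-ratios scaling), and with 1 library left out Uqcrfs1 (-0.17 to 0.070) in pDCs and Sdha in cDC2s (-0.039 to 0.047). Relative to the median of all genes, 57 instead of 70 members lay above 0 in cDC1s, and the folds of Cox7a2 and Cox8a there went from 0.11 and 0.024 to -0.063 and -0.15. With a replicate block the counts were 0 in pDCs (1 by the looser rule), 15 in cDC1s, 1 in cDC2s, 0 for the difference, 5 between WT and 8 between cKO subsets, so that it changed no count by over 1.5 times. In cDCs this block joined same-numbered libraries, which were not taken as pairs. The crossed pairing of the cDC1 libraries, chosen after seeing the data, gave 15, and no crossed pairing was fitted for cDC2s. Depth limits the low isoforms, where 1 TPM is about 8 to 11 reads per kilobase.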
